A study of Rattus norvegicus with 9 samples.

Results

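The 8 genes described here encode transcription factors that specify and maintain the hepatocyte lineage: Hnf4a, Foxa1, Foxa2, Foxa3, Cebpa, Cebpb, Onecut1 and Prox1. They were taken as a list of known factors and matched by symbol to the platform annotation, out of 18166 named genes on the array. Each was represented by 1 probe set, and all 8 were among the 15793 genes that passed the filter on dim genes. The levels of all 8 exceeded the 25th percentile of the array on each of the 9 arrays.

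RNA levels were read on Affymetrix arrays that cover whole transcripts, in livers of retrorsine-treated rats after partial hepatectomy. All rats were female F344 rats. Retrorsine was injected into the peritoneum 2 times at 30 mg/kg, with 2 weeks between doses, and part of the liver was removed 4 weeks later. Retrorsine is a plant alkaloid that blocks division of resident hepatocytes, and new tissue then grows from clusters of small hepatocytic progenitors, abbreviated SHPCs. In some rats, sorted Thy1+ cells from donors positive for dipeptidyl peptidase 4 were infused through the spleen, and the labels describe these recipients as negative for that enzyme. The material was captured by laser from frozen sections 7 µm thick stained with hematoxylin, so the clusters were chosen by their appearance. The 3 groups of 3 arrays were SHPC clusters of livers without transplantation (SHPC), SHPC clusters of livers with Thy1+ cells (SHPC + Thy1) and hepatocytes beside SHPC clusters in livers without transplantation (hepatocytes). One label of the hepatocyte arrays describes them as SHPCs with transplantation, while their cell type label gives hepatocytes beside SHPCs without it, and the latter was followed. The sources used here do not give the ages, the time of sampling, the number of rats or which captured regions share a rat. The p-values therefore measure the spread between these arrays, which may be partly technical, and they are too small if regions of a group share a rat.

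These factors act as an interlocking network in the hepatocyte, in which members bind the promoters and enhancers of each other and of the genes for plasma proteins and metabolic enzymes. The FOXA proteins open chromatin at liver enhancers in the early endoderm, ONECUT1 and PROX1 act as the liver bud forms and hepatocytes separate from bile duct cells, and HNF4A and C/EBP alpha sustain the mature state. C/EBP beta is known in the liver for the acute phase response and for regeneration.

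Arrays 2 of the SHPC and hepatocyte groups stood apart from the other 7. Their median intensities were 24.06 and 23.01, against 19.65 to 20.63, and their scores on the first principal component were 54.1 and 42.2, against -22.8 to 2.31. Differences without this pair are given only for some of the 8 factors, so the differences of other genes may rest on it. Alb, the albumin gene, was bright on every array, with log2 levels of 13.54 to 13.69. Its mean was 13.61 ± 0.06 (SD, n = 3) in hepatocytes, 13.63 ± 0.06 (SD, n = 3) in SHPC and 13.67 ± 0.02 (SD, n = 3) in SHPC + Thy1. These values lie near the top of the scale and can vary little, so they do not show equal hepatocyte content. In sections of bulk tissue, fewer cells of a type and less RNA per cell cannot be told apart. The summed linear intensity of 16 Kupffer cell markers, the liver's macrophages, was 2731 to 3800 in hepatocytes, 1955 to 3358 in SHPC and 3831 to 4480 in SHPC + Thy1. That of 15 hepatocyte markers was 55870 to 61370, 56650 to 64810 and 67160 to 67940 in the same order, and that of 9 cholangiocyte markers was 204.7 to 275, 251.7 to 257 and 248.6 to 292.6. In SHPC and in hepatocytes, the lowest sums of Kupffer and of hepatocyte markers were on array 2. How far the marker differences between groups enter the results below was not tested.

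The levels of 6 of the 8 factors overlapped among all 3 groups, and the 2 others, Onecut1 and Foxa3, lay apart on the SHPC + Thy1 arrays in opposite directions. Onecut1 was 2.35-fold lower in SHPC + Thy1 than in SHPC, and Foxa3 was 1.31-fold higher. None of the 8 passed limma's test at an adjusted p under 0.05 in any of the 3 comparisons, with p-values adjusted by Benjamini-Hochberg over all 15793 genes. At an unadjusted limma p under 0.05, the members counted were 2, 0 and 2 of 8 for SHPC + Thy1 against SHPC, SHPC against hepatocytes and SHPC + Thy1 against hepatocytes. In the same order, the percentages of all tested genes past the adjusted threshold were 0.00633, 0.0633 and 1.18, and past the unadjusted threshold 7.35, 4.12 and 10.4. The first and last comparisons share the SHPC + Thy1 arrays, and each pair of comparisons shares a group.

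**Figure D1:**
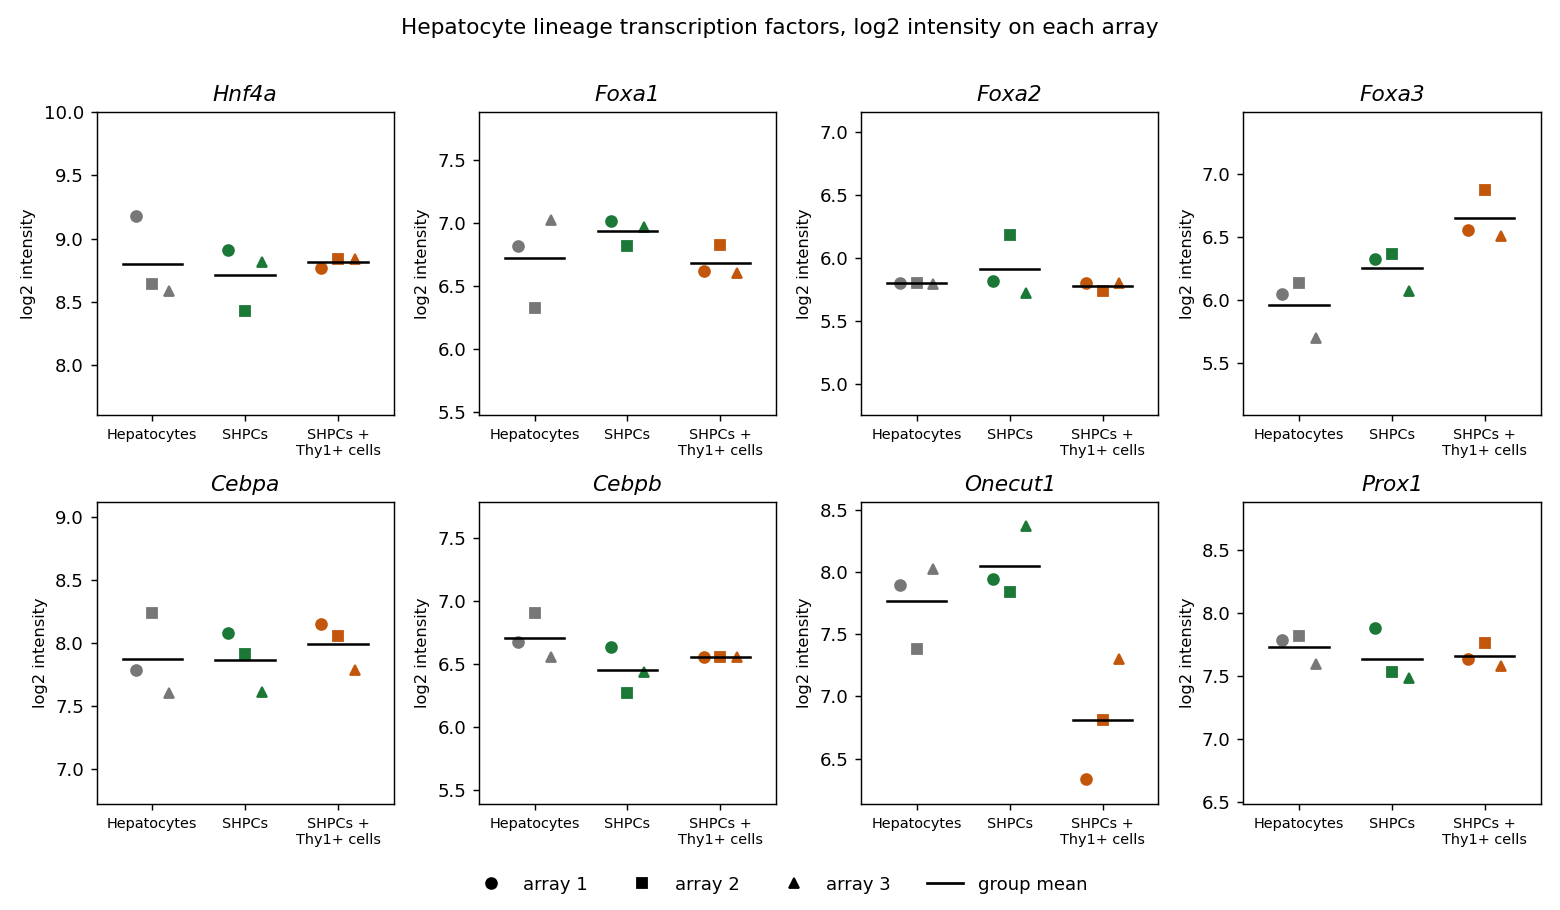
Log2 intensity (y axis) of each of the 8 factors on each of the 9 arrays, by group (x axis); symbols stand for arrays 1 to 3 and bars for group means, and each panel spans its own range of levels. The 3 SHPC + Thy1 arrays lie below the other 6 for Onecut1, at 6.33 to 7.30, and above them for Foxa3, at 6.51 to 6.88.

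Onecut1, also called HNF6, is a cut-homeodomain factor needed for bile duct development and for the timing of hepatoblast differentiation. Its log2 levels were 7.94, 7.84 and 8.36 on the SHPC arrays, 6.33, 6.81 and 7.30 on the SHPC + Thy1 arrays and 7.90, 7.38 and 8.03 on the hepatocyte arrays. Every SHPC + Thy1 array was thus below every other array, while the SHPC and hepatocyte arrays overlapped. The order of the group means was 8.05 ± 0.28 in SHPC, 7.77 ± 0.34 in hepatocytes and 6.81 ± 0.48 in SHPC + Thy1 (SD, n = 3 each), and the SD of the last group was the widest of any group for these factors. The difference between SHPC + Thy1 and SHPC was -1.23 ± 0.27 on the log2 scale (SE; 95% interval -1.83 to -0.64), with an unadjusted limma p of 0.000936, the 66th smallest of all genes, and a limma adjusted p of 0.224. Against hepatocytes the difference was -0.95 ± 0.27 (95% interval -1.55 to -0.36), a 1.94-fold lower level, with a limma adjusted p of 0.172. Between SHPC and hepatocytes the difference was 0.28 ± 0.27 (95% interval -0.31 to 0.87; limma adjusted p = 1).

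The adjusted p of Onecut1 moved across 0.05 with the processing. Against SHPC it was 0.0346 when the arrays were renormalised by cyclic loess and 0.0127 when limma weighted the arrays by their quality. Against hepatocytes it was 0.0428 after renewed quantile normalization, 0.0269 after cyclic loess and 0.00313 with array weights. The size of the difference moved less: leaving out any single array gave -1.48 to -0.99 against SHPC and -1.20 to -0.71 against hepatocytes, with no adjusted p under 0.05. Without the 2 arrays that stood apart it was -1.34 against SHPC and -1.15 against hepatocytes.

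The FOXA genes encode the forkhead pioneer factors, and Foxa3 is the member that persists at high levels in adult liver. Foxa3 stood at log2 levels of 6.33, 6.37 and 6.07 on the SHPC arrays, 6.56, 6.88 and 6.51 on the SHPC + Thy1 arrays and 6.05, 6.13 and 5.70 on the hepatocyte arrays. All 3 SHPC + Thy1 arrays were above the other 6, and SHPC array 3 lay within the range of the hepatocytes. The group means ran from 5.96 ± 0.23 in hepatocytes through 6.26 ± 0.16 in SHPC to 6.65 ± 0.20 in SHPC + Thy1 (SD, n = 3 each). The level in SHPC + Thy1 was 1.61-fold that of hepatocytes, a log2 difference of 0.69 ± 0.17 (95% interval 0.32 to 1.06; limma unadjusted p = 0.00212, adjusted p = 0.106). Its neighbours in this order were closer: SHPC + Thy1 differed from SHPC by 0.39 ± 0.17 (95% interval 0.02 to 0.76; limma adjusted p = 0.668), and SHPC from hepatocytes by 0.30 ± 0.17 (95% interval -0.076 to 0.67; limma adjusted p = 1). The adjusted p against hepatocytes fell under 0.05 with array weights, at 0.000844, and without the 2 arrays that stood apart, at 0.0444. Leaving out single arrays gave differences of 0.56 to 0.77 in that comparison, with no adjusted p under 0.05.

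The other forkhead members, Foxa1 and Foxa2, did not lie apart between any groups. Foxa1, which shares early endoderm functions with Foxa2, had intensities of 129.2, 112.9 and 125.1 in SHPC, 98.25, 113.3 and 97.19 in SHPC + Thy1 and 112.9, 80.47 and 130.4 in hepatocytes. Its lowest and highest arrays were thus both hepatocyte arrays. The Foxa1 difference was -0.25 ± 0.18 between SHPC + Thy1 and SHPC on the log2 scale, with a 95% interval of -0.66 to 0.15. Foxa2 had intensities of 56.52, 72.89 and 52.97 in SHPC, 55.76, 53.37 and 55.76 in SHPC + Thy1 and 55.76, 55.76 and 55.61 in hepatocytes. Its single high value was on SHPC array 2, one of the 2 arrays that stood apart, and without that pair its difference between SHPC + Thy1 and SHPC moved from -0.13 ± 0.14 to 0.0063. The deposited value of Foxa2 was the same, 55.76, on 4 of the 9 arrays. Such repeats were common: 28% of tested genes had 7 or fewer distinct values over the 9 arrays. They narrow a gene's measured spread, and the sources used here do not give their origin.

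Across 3 forkhead paralogs, then, the values of SHPC + Thy1 against SHPC were 0.39 for Foxa3, -0.13 for Foxa2 and -0.25 for Foxa1, of which only Foxa3 had an interval that left out 0. The differences among the paralogs were not tested.

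**Figure D2:**
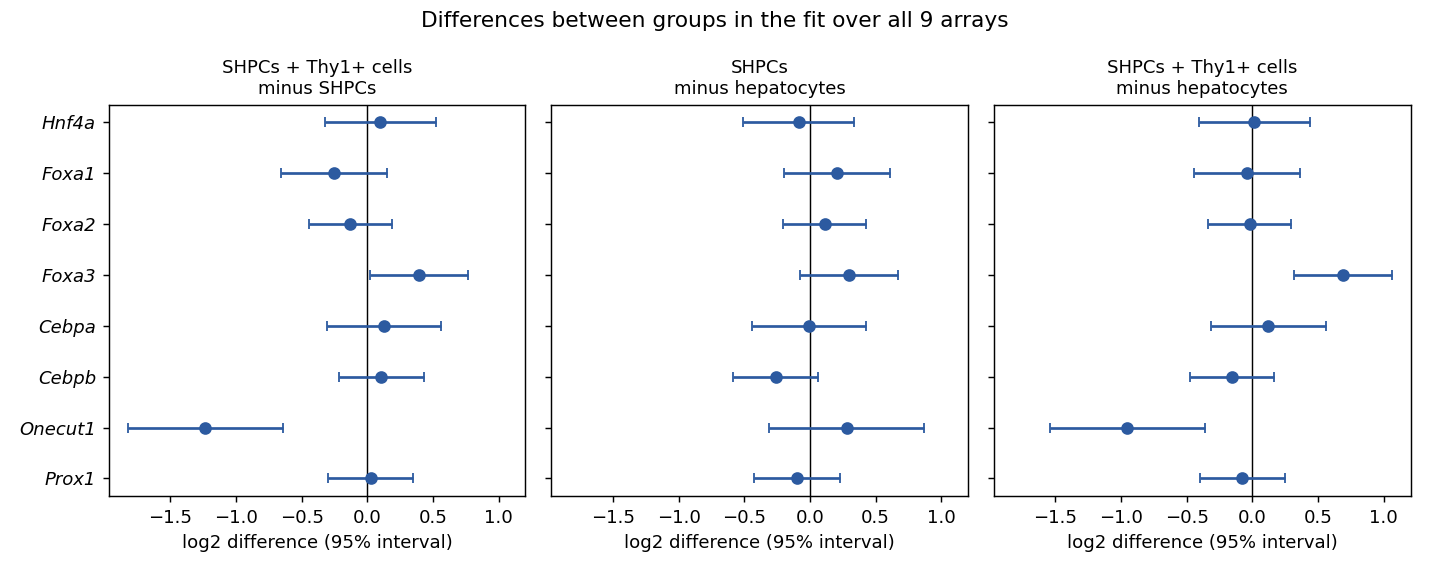
Log2 difference (x axis) with its 95% interval in limma's fit over 9 arrays for each of the 8 factors (y axis), in the 3 comparisons. Intervals leave out 0 for Onecut1 and Foxa3 in both comparisons with SHPC + Thy1, and for no factor between SHPC and hepatocytes.

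Hnf4a encodes the nuclear receptor that binds a large part of hepatocyte-specific promoters. Its intensities were 480.5, 343.5 and 449.2 in SHPC, 434.3, 457.7 and 456.9 in SHPC + Thy1 and 579.3, 397.7 and 383.7 in hepatocytes. The SHPC + Thy1 arrays fell inside the range of both other groups. Log2 means were 8.71 ± 0.26, 8.81 ± 0.04 and 8.80 ± 0.33 in the same order (SD, n = 3 each). The difference between SHPC + Thy1 and SHPC was 0.098 ± 0.19, with a 95% interval of -0.32 to 0.52, and that between SHPC and hepatocytes was -0.085 ± 0.19, with an interval of -0.51 to 0.34. Its sign in the former comparison turned under renewed quantile normalization, at -0.082, so no direction is given.

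The sequences around the starts of Hnf4a and Foxa2 are shown because these were the promoters among the members that held letters recognised by ONECUT or FOXA proteins. RefSeq windows on the GRCr8 build, from 250 bases before to 50 bases after a start, were at hand for 5 of the 8 genes, with 2 windows for Hnf4a 35.6 kb apart, the alternative starts of that gene. Foxa1, Onecut1 and Prox1 had no entry. Capitals mark matches on either strand to short cores. The ONECUT core was ATCAAT or the variant ATCGAT, and the HNF1 core was GTTAAT. The FOXA core was TGTTTAC, the variant TGTTTGC or the variant TGTTTGT. The HNF4 core was CAAAGTCCA or the variant CAAAGGTCA, and the C/EBP core was TTGCGCAA, the variant TTGCGTAA or the variant TTGTGCAA. None of these cores overlapped another within the windows shown. The first line is the upstream Hnf4a window at chr3:172605970-172606269 on the plus strand, the second the downstream Hnf4a window at chr3:172641586-172641885 on the plus strand, and the third the Foxa2 window at chr3:155927459-155927758 on the minus strand.
Hnf4a upstream start: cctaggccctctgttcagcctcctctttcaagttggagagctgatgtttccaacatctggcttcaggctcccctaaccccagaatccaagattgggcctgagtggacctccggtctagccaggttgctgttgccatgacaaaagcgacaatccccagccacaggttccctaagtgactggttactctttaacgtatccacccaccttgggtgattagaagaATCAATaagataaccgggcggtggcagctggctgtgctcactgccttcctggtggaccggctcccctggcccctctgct
Hnf4a downstream start: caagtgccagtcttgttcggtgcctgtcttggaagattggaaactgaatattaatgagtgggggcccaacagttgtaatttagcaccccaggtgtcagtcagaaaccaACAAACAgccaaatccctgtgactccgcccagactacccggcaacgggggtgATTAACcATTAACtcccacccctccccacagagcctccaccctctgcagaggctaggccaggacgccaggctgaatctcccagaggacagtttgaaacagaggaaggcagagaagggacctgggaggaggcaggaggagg
Foxa2 start: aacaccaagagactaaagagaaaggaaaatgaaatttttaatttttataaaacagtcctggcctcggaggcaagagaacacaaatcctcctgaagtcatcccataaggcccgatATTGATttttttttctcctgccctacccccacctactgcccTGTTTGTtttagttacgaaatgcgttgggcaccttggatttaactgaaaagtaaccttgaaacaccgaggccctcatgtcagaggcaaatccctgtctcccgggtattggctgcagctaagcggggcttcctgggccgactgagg
The upstream Hnf4a window held ATCAAT at base -29 from the start. The downstream window held a FOXA core on the opposite strand at -142 and HNF1 cores on the opposite strand at -90 and -83. The Foxa2 window held an ONECUT core on the opposite strand at -136 and TGTTTGT at -95. The windows of Foxa3, Cebpa and Cebpb held 0 matches. Among 33469 rat windows of this length, 8.87% held an ONECUT core, 14.0% a FOXA core, 7.45% the HNF1 core, 0.813% an HNF4 core and 1.15% a C/EBP core. A match of letters is not a measured binding site. Onecut1 was 2.35-fold lower in SHPC + Thy1 than in SHPC, and the levels of Hnf4a and Foxa2 overlapped between those groups. A link between the matches and these levels was not tested, and the Hnf4a level was not split by start.

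Cebpa encodes C/EBP alpha, which holds hepatocytes in a differentiated, non-dividing state, and Cebpb encodes its relative C/EBP beta. Cebpa had intensities of 270.6, 240.4 and 196 in SHPC, 283.5, 265.8 and 220.5 in SHPC + Thy1 and 220.4, 301.2 and 194.9 in hepatocytes, and the hepatocyte arrays spanned the values of both other groups. Its log2 differences were 0.13 ± 0.20 (95% interval -0.31 to 0.56) between SHPC + Thy1 and SHPC and -0.0071 ± 0.20 (95% interval -0.44 to 0.43) between SHPC and hepatocytes. The sign of the former turned under cyclic loess, at -0.085.

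Cebpb had intensities of 99.69, 77.39 and 86.52 in SHPC, 94.08, 94.13 and 94.13 in SHPC + Thy1 and 102, 119.7 and 94.13 in hepatocytes. SHPC array 1 lay inside the hepatocyte range and the other SHPC arrays below it. The difference between SHPC and hepatocytes was -0.26 ± 0.14 on the log2 scale (95% interval -0.58 to 0.059; limma unadjusted p = 0.0991, adjusted p = 1), the widest of the 18 differences of the 6 factors other than Onecut1 and Foxa3. Cebpb repeated the value 94.13 on 3 arrays. Its group SD of 0.0005 in SHPC + Thy1 reflects these near-equal values. Within an array, the log2 level of Cebpa minus that of Cebpb was 1.16 ± 0.15 in hepatocytes, 1.42 ± 0.23 in SHPC and 1.44 ± 0.19 in SHPC + Thy1 (SD, n = 3 each). The size of this quantity depends on the probes, so only its shift between groups can be read. The shift was 0.25 from hepatocytes to SHPC and 0.02 from SHPC to SHPC + Thy1, without a test.

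Prox1 encodes a homeodomain factor that hepatoblasts need to leave the liver bud, and it also marks lymphatic endothelium. Its intensities were 235.5, 184.9 and 179.7 in SHPC, 198.7, 217.1 and 191 in SHPC + Thy1 and 220.7, 226.1 and 193.3 in hepatocytes. The groups overlapped throughout, and the largest of its log2 differences was -0.10 ± 0.15 between SHPC and hepatocytes (95% interval -0.43 to 0.23). The summed intensity of 7 lymphatic markers overlapped as well, at 355.3 to 526.7 in SHPC, 508.6 to 572.6 in SHPC + Thy1 and 431.8 to 634.8 in hepatocytes.

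For the 6 factors other than Onecut1 and Foxa3, all 18 intervals included 0. Their outer bounds were -0.66 and 0.61 on the log2 scale. Groups that did not overlap were found for 2, 0 and 2 of the 8 members in the 3 comparisons, where 15.8%, 5.22% and 19.2% of all tested genes did not overlap. The median difference of the 8 members was 0.061, 0.052 and -0.032 on the log2 scale, beside 0.017, -0.0062 and -0.0013 over all genes.

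Some other transcription factors of the hepatocyte passed the test, only in SHPC + Thy1 against hepatocytes. Their list was chosen with earlier results of these data known, so its calls set no contrast with the 8 factors. Of 35 on this list of nuclear receptors, GATA, NFI, bZIP, homeobox, T-box and other regulators, 30 were measured. The members past limma's adjusted threshold were 0 for SHPC + Thy1 against SHPC, 0 for SHPC against hepatocytes and 3, all lower, for SHPC + Thy1 against hepatocytes, where 0.317% of all tested genes passed as lower and 0.861% as higher. At an unadjusted limma p under 0.05 the counts were 5, 3 and 8 of 30, beside 7.35%, 4.12% and 10.4% of all tested genes. Their median differences were 0.072, 0.025 and 0.065.

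Nr1i3, the constitutive androstane receptor that switches on drug metabolism, had intensities of 31.64, 38.78 and 35.25 in SHPC + Thy1, 51.13, 57.24 and 108.3 in SHPC and 251.4, 158.2 and 251.4 in hepatocytes. The 3 groups did not overlap. It fell by 2.62 ± 0.28 (SE) on the log2 scale in SHPC + Thy1 against hepatocytes (limma adjusted p = 0.00374), a call that stood under all 22 alternative settings. Its difference was -1.66 ± 0.28 between SHPC and hepatocytes (limma adjusted p = 0.114) and -0.96 ± 0.28 between SHPC + Thy1 and SHPC (limma adjusted p = 0.46). Atf5, a stress-responsive bZIP factor, was 2.38-fold lower in SHPC + Thy1 than in hepatocytes (-1.25 ± 0.20, limma adjusted p = 0.0206), and its SHPC and hepatocyte levels overlapped. The Atf5 difference from SHPC was -1.23 ± 0.20 (limma adjusted p = 0.14). Its call was lost in 6 of 22 settings: without any single SHPC + Thy1 array, without hepatocyte array 2 or 3, and with all probe sets tested, at limma adjusted p of 0.0612 to 0.118. Tbx3, a T-box factor of hepatoblasts, fell by 0.90 ± 0.17 in the same comparison (limma adjusted p = 0.0368). Its difference was -0.995 ± 0.17 between SHPC and hepatocytes (limma adjusted p = 0.114) and 0.096 ± 0.17 between SHPC + Thy1 and SHPC (limma adjusted p = 0.859). The Tbx3 call was lost in 10 of 22 settings: without SHPC array 1 or 3, any single SHPC + Thy1 array, or hepatocyte array 2 or 3, and with median centring, all probe sets tested or the compared groups only, at limma adjusted p of 0.0517 to 0.191.

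**Figure D3:**
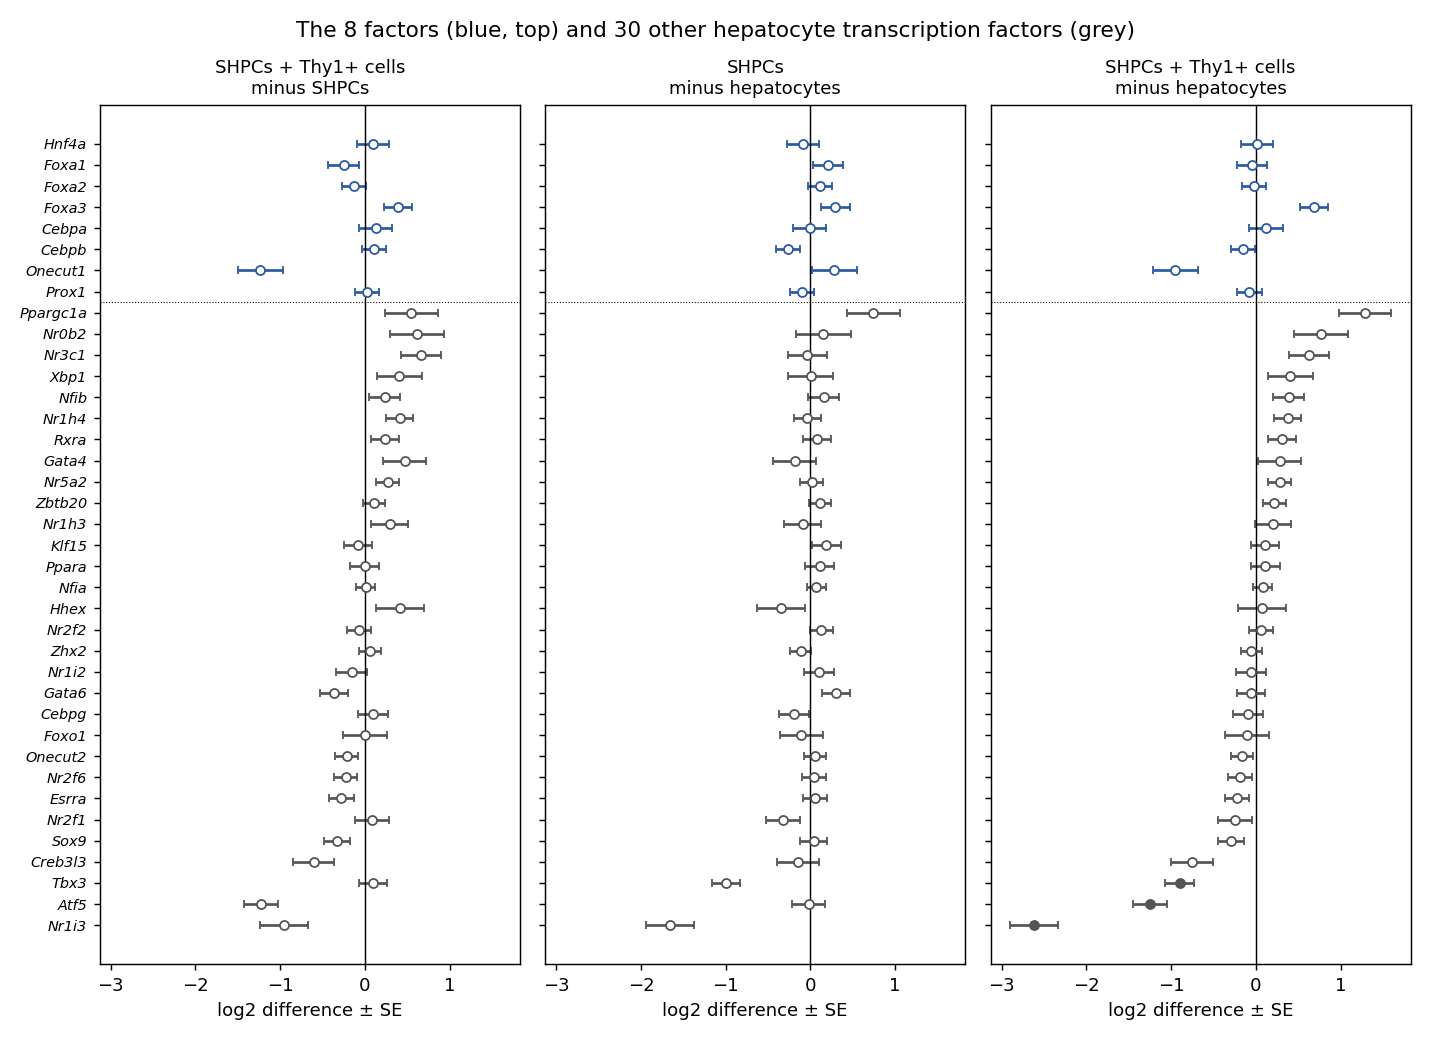
Log2 difference with its SE (x axis) for the 8 factors (top, blue) and 30 other hepatocyte transcription factors (grey) in the 3 comparisons; filled points had a limma adjusted p under 0.05. Nr1i3, Atf5 and Tbx3 are the filled points, all in SHPC + Thy1 against hepatocytes, and Onecut1 is the lowest of the 8 in both comparisons with SHPC + Thy1.

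Known target genes of these factors were read from lists of textbook targets. These lists and the marker lists were chosen with earlier results of these data known, so their counts set no contrast with all tested genes. The lists share genes, so their counts are not independent. Tat and Pck1, for example, are on those of HNF4A, FOXA, C/EBP alpha and ONECUT1. For ONECUT1, 8 of 11 listed targets were tested, of which 5 were higher and 3 lower in SHPC + Thy1 than in SHPC. Their median was 0.18, beside 0.017 over all genes. Of the 8, 3 had an unadjusted limma p under 0.05, beside 7.35% of all tested genes, and 0 passed limma's adjusted threshold. Against hepatocytes, 1 of the 8 passed, beside 1.18% of all tested genes, and it was higher. This was Pfkfb1, the enzyme that sets fructose-2,6-bisphosphate in liver, with log2 levels of 7.40, 7.51 and 7.30 in SHPC + Thy1, 7.02, 6.47 and 6.76 in SHPC and 6.33, 6.13 and 6.79 in hepatocytes. Every SHPC + Thy1 array was above every other array, whereas for Onecut1 each was below. For both genes the SHPC mean was above the hepatocyte mean. Pfkfb1 rose by 0.99 ± 0.20 against hepatocytes (limma adjusted p = 0.0476) and differed by 0.65 ± 0.20 from SHPC (limma adjusted p = 0.46). The call was lost in 10 of 22 settings: without SHPC array 3, any single SHPC + Thy1 array, or hepatocyte array 1 or 2, and with median centring, no filter on dim genes, all probe sets tested or a trended, robust eBayes, at limma adjusted p of 0.053 to 0.227.

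Cyp7a1, the rate-limiting enzyme of bile acid synthesis and another listed target, differed by 1.82 ± 0.51 between SHPC + Thy1 and SHPC (limma adjusted p = 0.428), with intensities in SHPC of 126.2, 21.31 and 53.42. The lowest of these was SHPC array 2, one of the 2 arrays that stood apart. Onecut2, the closest relative of Onecut1 and listed among its targets, differed by -0.22 ± 0.13 between SHPC + Thy1 and SHPC (limma adjusted p = 0.705) and lay below SHPC on all 3 arrays. The other listed targets that were lower in SHPC + Thy1 than in SHPC were Tat and Pck1. Tat differed by -0.39 ± 0.17 (limma unadjusted p = 0.044, adjusted p = 0.669) and Pck1 by -0.33 ± 0.21 (limma adjusted p = 0.71). Of 6 tested targets with a RefSeq window, 3 held an ONECUT core: Cyp2c12 and Slc2a2 with 2 matches each and Ttr with 1. Their differences between SHPC + Thy1 and SHPC were 0.23 ± 0.12, 0.48 ± 0.28 and 0.13 ± 0.13, with limma adjusted p of 0.705 to 0.78. The Slc2a2 log2 level was 9.31 on SHPC array 2, against 10.08 and 9.94 on SHPC arrays 1 and 3. Cyp2c12 belongs to a family of similar genes whose probes may not separate them.

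Among targets of the FOXA factors, 6 of 10 were higher and 4 lower in SHPC + Thy1 than in SHPC, and 7 and 3 against hepatocytes. None passed limma's adjusted threshold against SHPC (2 had an unadjusted limma p under 0.05, beside 7.35% of all tested genes). The single gene that passed against hepatocytes, where 1.18% of all tested genes passed, was Cpt1a. It admits long-chain fatty acids to mitochondria and fell by 1.69 ± 0.23 (limma adjusted p = 0.0112). That call was lost in 7 of 22 settings: without any single SHPC + Thy1 array, without hepatocyte array 1 or 3, and with median centring or all probe sets tested, at limma adjusted p of 0.0505 to 0.0788. Against SHPC the difference of Cpt1a was -1.75 ± 0.23 (limma adjusted p = 0.0752).

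Of 20 tested HNF4A targets, 13 were higher and 7 lower in SHPC + Thy1 than in SHPC. Their median was 0.10, beside 0.017 over all genes. Against SHPC, 5 had an unadjusted limma p under 0.05, beside 7.35% of all tested genes, and 0 passed limma's adjusted threshold. Against hepatocytes 1 passed, beside 1.18% of all tested genes. This was Cyp8b1, which directs bile acid synthesis to cholic acid and fell by 2.57 ± 0.32 (limma adjusted p = 0.00644). The Cyp8b1 call stood under all 22 alternative settings, and its difference from SHPC was -2.26 ± 0.32 (limma adjusted p = 0.0804).

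Of 12 tested targets of C/EBP alpha, 9 were higher and 3 lower in each of the 3 comparisons. In SHPC + Thy1 against hepatocytes their median was 0.36, beside -0.0013 over all genes. There 1 passed limma's adjusted threshold as higher and 1 as lower, beside 0.861% and 0.317% of all tested genes. Arg1, the urea cycle arginase, rose by 0.68 ± 0.13 (limma adjusted p = 0.0444). Gys2, liver glycogen synthase, fell by 0.90 ± 0.17 (limma adjusted p = 0.0368). Against SHPC these differences were 0.44 ± 0.13 for Arg1 and -0.86 ± 0.17 for Gys2, with limma adjusted p of 0.461 and 0.176. The Gys2 call was lost in 8 of 22 settings: without any single SHPC + Thy1 array, without hepatocyte array 1 or 3, and with median centring, all probe sets tested or a trended, robust eBayes, at limma adjusted p of 0.0625 to 0.199. The Arg1 call was lost in 13 of 22: without SHPC array 1 or 3 or any single array of the 2 groups compared, with median centring, quantile normalization or cyclic loess, and with all probe sets tested or a trended, robust eBayes, at limma adjusted p of 0.0579 to 0.28. Of 13 tested acute phase targets of C/EBP beta, 12 were higher and 1 lower in SHPC + Thy1 than in either other group. Their medians were 0.20 against SHPC and 0.19 against hepatocytes, beside 0.017 and -0.0013 over all genes. The 15 hepatocyte markers were also mostly higher, with 13 higher and 2 lower against SHPC and 12 and 3 against hepatocytes. The single acute phase target past the threshold was A2m, which encodes alpha-2-macroglobulin. It was 4.81-fold higher in SHPC + Thy1 than in hepatocytes (2.27 ± 0.35, limma adjusted p = 0.0206), where 1.18% of all tested genes passed. A2m was also 4.09-fold higher in SHPC than in hepatocytes (2.03 ± 0.35, limma adjusted p = 0.114), and SHPC + Thy1 differed from SHPC by 0.23 ± 0.35 (limma adjusted p = 0.838). The A2m call was lost in 5 of 22 settings: without SHPC + Thy1 array 2 or 3 or hepatocyte array 1 or 3, and with all probe sets tested, at limma adjusted p of 0.0686 to 0.104. Cebpb itself was 0.11 ± 0.14 from SHPC and -0.15 ± 0.14 from hepatocytes in the same groups. All 16 Kupffer cell markers were higher in SHPC + Thy1 than in SHPC, with a median of 0.57 beside 0.017 over all genes. SHPC array 2, one of the 2 arrays that stood apart, was the lowest, with a median log2 level of these markers of 6.55. The level was 7.62 and 7.60 on SHPC arrays 1 and 3, and 7.74, 7.91 and 7.95 on the SHPC + Thy1 arrays. Of the 16, 5 had an unadjusted limma p under 0.05, beside 7.35% of all tested genes, and 0 passed the adjusted threshold. Against hepatocytes, 13 of the 16 were higher and 1 passed, beside 1.18% of all tested genes. It was the scavenger receptor gene Marco (0.80 ± 0.16, limma adjusted p = 0.0456). The Marco call was lost in 15 of 22 settings: without SHPC array 1 or 3 or any single array of the 2 groups compared, under each of the 3 renormalizations, and with no filter on dim genes, all probe sets tested, the compared groups only or a trended, robust eBayes, at limma adjusted p of 0.0503 to 0.203.

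**Figure D4:**
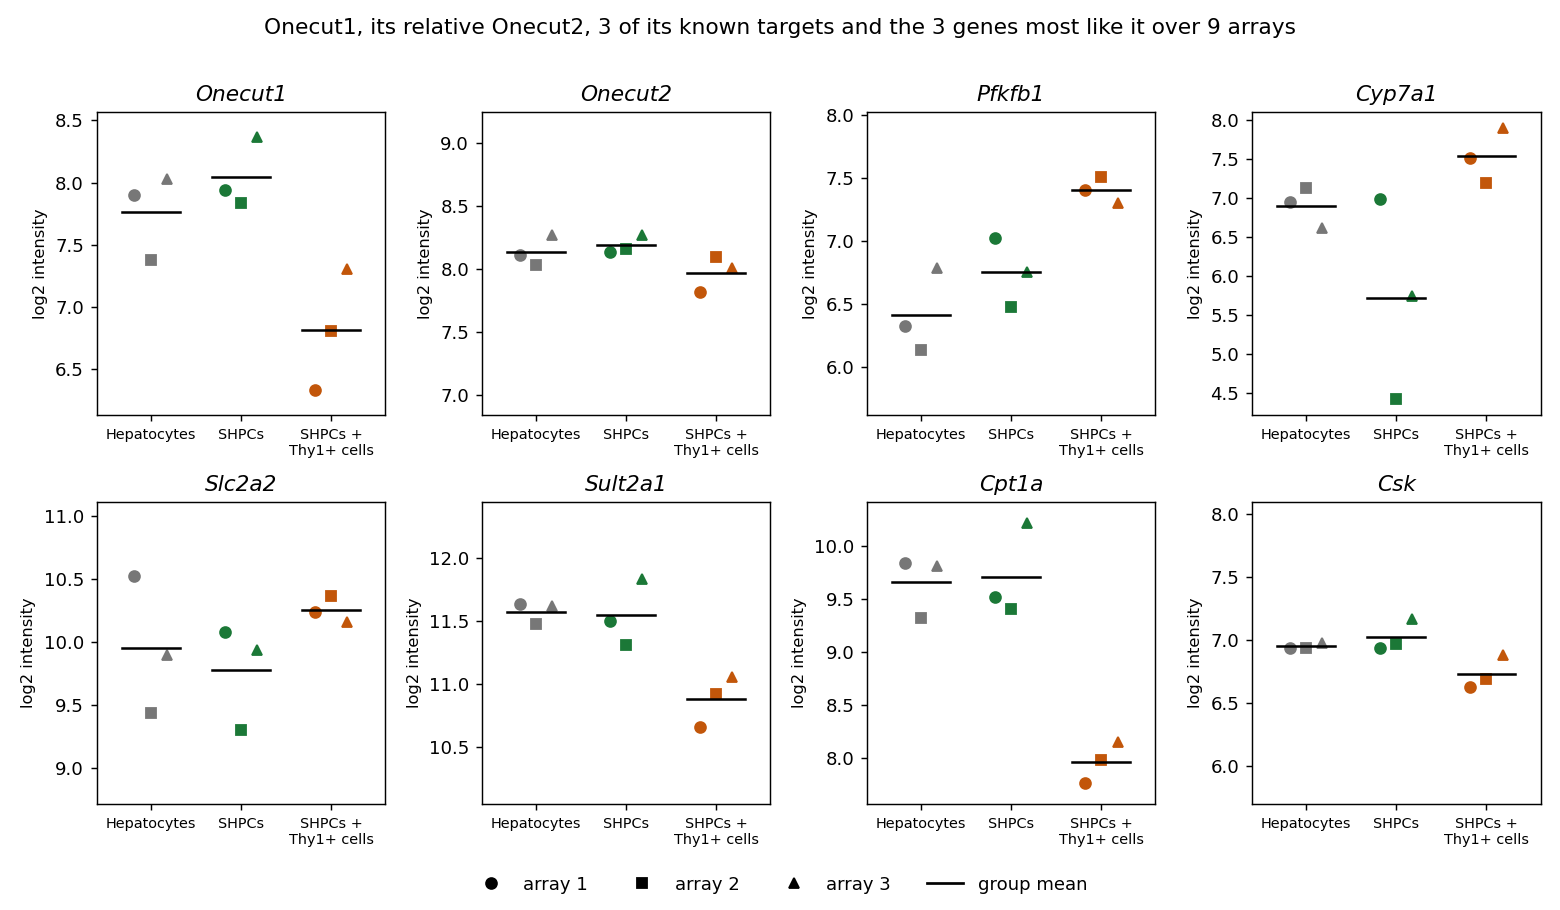
Log2 intensity (y axis) on each array by group (x axis) for Onecut1, its relative Onecut2, the listed targets Pfkfb1, Cyp7a1 and Slc2a2, and the 3 genes most like Onecut1 over 9 arrays; symbols stand for arrays 1 to 3, bars for group means, and panels span their own ranges. The SHPC + Thy1 arrays lie lowest for Onecut1, Sult2a1, Cpt1a and Csk and highest for Pfkfb1 and Cyp7a1.

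The genes whose log2 levels followed Onecut1 most closely, among 15717 compared, were Csk (Pearson r = 0.948 over 9 arrays), Sult2a1 (0.945) and Cpt1a (0.939). Csk encodes a kinase that restrains Src, and Sult2a1 a sulfotransferase of bile acids and steroids whose rat paralogs may share its probes. Over the 7 arrays without the 2 that stood apart, the closest were Sult2a1 (0.986), Pramef5 (0.983) and Timm21 (0.981). Csk and Cpt1a stood there at 0.963 and 0.954. Pramef5 and Timm21 stood at only 0.49 and 0.53 over 9 arrays. Sult2a1 had intensities of 1619, 1940 and 2132 in SHPC + Thy1 and of 2535 to 3637 on the other 6 arrays. Its difference between SHPC + Thy1 and SHPC was -0.67 ± 0.17 (limma adjusted p = 0.326), and that of Csk was -0.29 ± 0.13 (limma adjusted p = 0.674). For Foxa3 the closest genes over 9 arrays were Mtss1 (0.946), Map3k1 (0.909) and Spata13 (0.905). Over 7 arrays they were Tmed7 (0.994), Khk (0.990) and Dlat (0.990), which stood at only 0.42, 0.54 and 0.43 over 9 arrays. These values describe 9 arrays that share their groups and overall intensity, and carry no test.

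The number of genes at a Pearson r over 0.9 depended on the arrays used. Over 9 arrays it was 235 for Foxa2, 101 for Hnf4a, 10 for Cebpb, 9 for Onecut1, 7 for Foxa1, 3 for Foxa3, 2 for Prox1 and 1 for Cebpa. Over 7 arrays it was 312 for Foxa3, 199 for Hnf4a, 72 for Onecut1, 51 for Foxa1, 42 for Foxa2, 38 for Cebpa, 37 for Cebpb and 14 for Prox1. Among the 28 pairs of the 8 factors, 15 had a positive r over 9 arrays and 17 over 7 arrays, with medians of 0.0073 and 0.13. Onecut1 and Foxa3 had an r of -0.72 over 9 arrays and -0.78 over 7, and Cebpb and Prox1 had 0.75 and 0.84.

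The differences of Onecut1 and Foxa3 kept their signs under every setting tried, in both comparisons with SHPC + Thy1, while their adjusted p-values crossed the threshold in some.

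**Figure D5:**
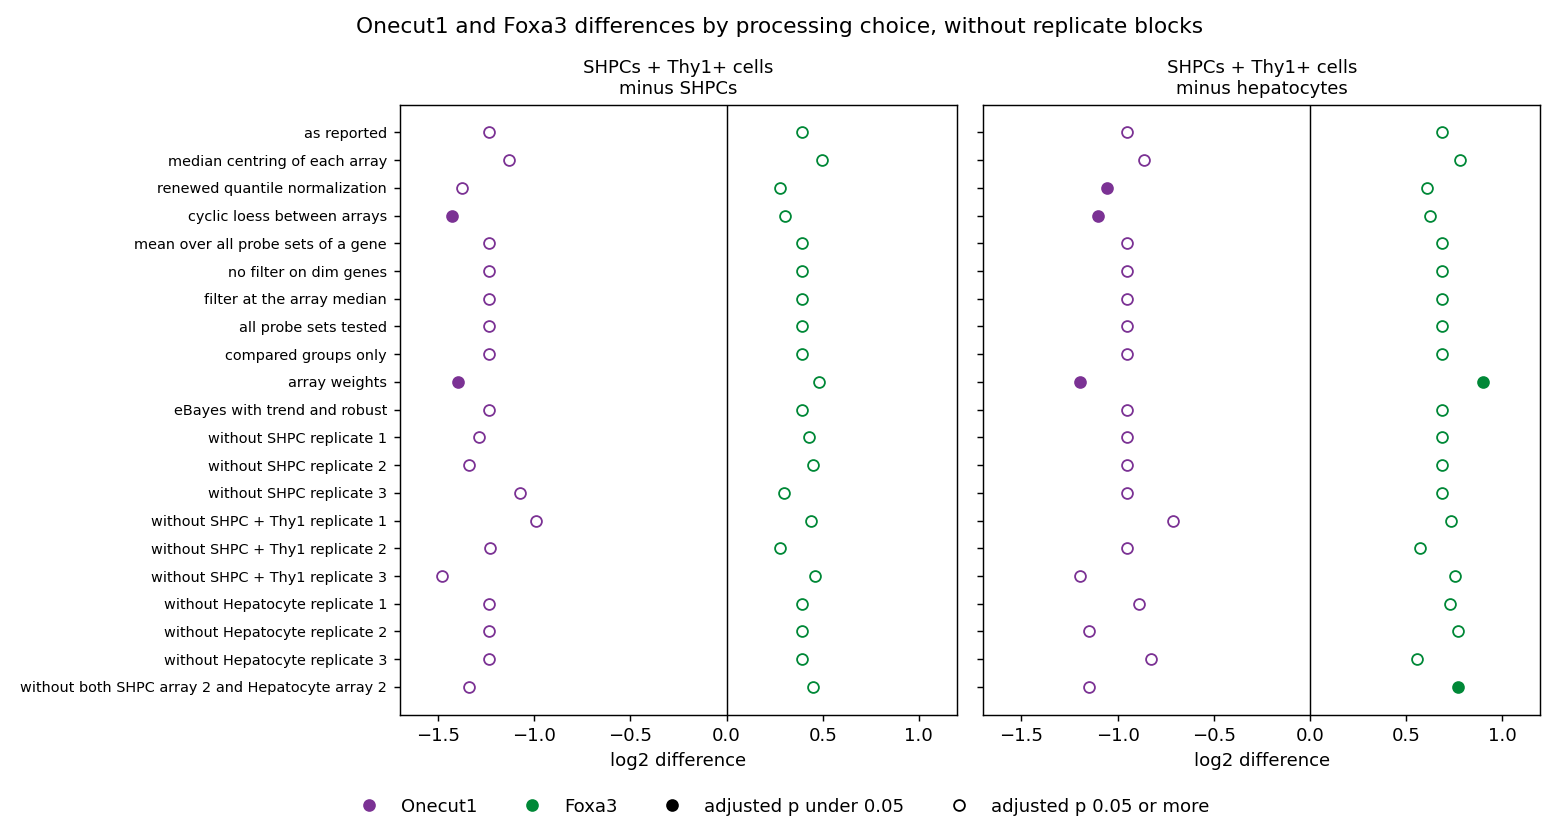
Log2 difference (x axis) of Onecut1 (purple) and Foxa3 (green) in SHPC + Thy1 against SHPC (left) and against hepatocytes (right) under each processing choice (y axis) other than a block on the replicate number; filled points had a limma adjusted p under 0.05. The Onecut1 points run from -1.48 to -0.99 against SHPC and the Foxa3 points from 0.56 to 0.90 against hepatocytes, with filled points under cyclic loess, quantile normalization, array weights and the omission of the 2 arrays that stood apart.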

How the data were processed

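The deposited table holds intensities on the linear scale for 36685 probe sets, made by the authors with RMA, per the submitters' processing notes; the notes name no version, settings or genome build. The log2 of each value was taken. Of the probe sets, 18511 had 1 gene symbol in the platform annotation and 575 several, which were not named; the rest were unnamed here. Each gene was represented by its probe set of highest mean. Genes above the array's 25th percentile on fewer than 3 of 9 arrays, 2373 in all, were left out. For the comparisons, limma 3.58.1 (R 4.3.3) fitted 3 group means to all 9 arrays at once, leaving 6 residual degrees of freedom. P-values were moderated with eBayes and adjusted by Benjamini-Hochberg, with a threshold of 0.05. The number of arrays limits the precision.

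The factors and the lists (17, with 197 of 239 members tested) were chosen with earlier results of these data known. Named genes were the 8 factors and, per target, factor or marker list and comparison, those past the threshold or otherwise the smallest p; array pictures and further targets were chosen after their values were seen. The scripts were tested on simulated data. For equal replicate numbers, deviations from group means correlated at 0.34 to 0.70 between SHPC and hepatocyte arrays. Between SHPC + Thy1 arrays and either other group they correlated at -0.094 to 0.0023. Arrays 2 of SHPC and hepatocytes both stood apart, which can by itself make such correlations positive in groups this small. The check therefore cannot show whether the numbers pair samples.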

Additional observations from a re-analysis of the deposited data

How the results depend on the processing

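The 8 factors were refitted under 22 alternative settings, 9 of which left out a single array. Median centring moved the median of all genes by 0.10 in SHPC + Thy1 against SHPC and by 0.093 against hepatocytes. No factor passed in SHPC against hepatocytes under any setting, and leaving out single arrays gave 0 to 0 factors past the threshold in each comparison. In SHPC + Thy1 against SHPC, 1 factor, Onecut1, passed with cyclic loess and with array weights. Against hepatocytes, 1 passed with renewed quantile normalization, 1 with cyclic loess, 2 with array weights and 1 without both arrays that stood apart. The share of all genes past the threshold under each setting is not given here. The counts of factors, also those with a block below, therefore do not show whether a setting raised calls among all genes.

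With a fixed block for the replicate number, 1 factor passed in SHPC + Thy1 against SHPC (Onecut1, limma adjusted p = 0.034) and 2 against hepatocytes (Onecut1 and Foxa3, 0.0335 each); with a random block for it, 0 and 1 passed (Foxa3, 0.0458; correlation 0.16). The block changed no factor's call in SHPC against hepatocytes. Whether the replicate numbers pair samples is not known.

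Signs turned only for factors whose intervals included 0, and the causes were not tested. In SHPC + Thy1 against SHPC, Hnf4a became -0.082 with renewed quantile normalization, -0.14 with cyclic loess, -0.023 with array weights and -0.0475 without both arrays; Foxa2 became 0.0063 without both arrays; Cebpa -0.065 with quantile normalization and -0.085 with loess; Cebpb -0.0115 with loess; and Prox1 -0.16, -0.18 and -0.0265 with quantile normalization, loess and without both arrays. In SHPC against hepatocytes, array weights gave 0.19 for Hnf4a, -0.0185 for Foxa2, 0.15 for Cebpa and 0.014 for Prox1. There Cebpa was 0.035 with quantile normalization, 0.038 with loess and 0.15 without both arrays, where Foxa2 was -0.025. In SHPC + Thy1 against hepatocytes, Hnf4a became -0.15 with quantile normalization, -0.18 with loess and -0.069 without both arrays; Cebpa -0.029 and -0.047 with quantile normalization and loess; Foxa1, Foxa2 and Prox1 0.049, 0.073 and 0.017 with median centring; and Prox1 0.040 with array weights.

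Leaving out single arrays also turned signs. The ranges in SHPC + Thy1 against SHPC were -0.0475 to 0.19 for Hnf4a, -0.22 to 0.0063 for Foxa2 and -0.047 to 0.15 for Prox1. In SHPC against hepatocytes they were -0.19 to 0.10 for Hnf4a, -0.026 to 0.20 for Foxa2 and -0.14 to 0.17 for Cebpa. For SHPC + Thy1 against hepatocytes they were -0.095 to 0.20 for Hnf4a, -0.24 to 0.11 for Foxa1, -0.030 to 0.0013 for Foxa2 and -0.014 to 0.30 for Cebpa.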
